A study of Mus musculus with 8 samples.

Results

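CD8 T cells from the spleen of wild-type (WT) mice were compared after culture on their own and after co-culture with lung group 2 innate lymphoid cells (ILC2s), across all genes of the deposited CD8 T cell count table. This comparison holds 4 of the 8 libraries of the series, 2 labelled alone (untreated) and 2 labelled co-cultured, and both groups are primary cells of the same tissue and genotype. Co-culture lasted 3 days at a ratio of 5:1 (the design text names CD8 T cells before ILC2s, without saying which number is whose), and, per the labels, flow cytometry then recovered 1e+06 cells per group. Trizol was used for the RNA, and a SMART-Seq v4 kit for small amounts of RNA made the libraries. The labels name neither the age of the mice nor a stimulus given to either group, and nothing in them says that the 2 libraries of a group came from separate cultures or animals. P-values therefore measure only the spread between these libraries, which may be technical.

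CD8 T cells recognise peptide on MHC class I through the T cell receptor and, once activated, grow, divide and become cytotoxic effectors or memory cells. Growth draws on amino acid uptake, ribosome production and mitochondrial and glycolytic metabolism, while resting and memory cells rely more on fatty acid oxidation, lysosomes and autophagy. Receptors for cytokines and chemoattractants, integrins and surface ectoenzymes then set which signals the cells receive and where in the body they settle. The genes described below are those of such regulators, receptors, transporters and metabolic pathways. Cytokine, granzyme and Ccr9 genes were set aside.

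The 4 libraries held 52664716 and 57077134 counts alone and 66170866 and 67076905 counts co-cultured. Levels are given as CPM, counts scaled to 1e+06 per library, which compare libraries and not genes, since long transcripts yield more reads. Log2 changes are co-cultured against alone, on TMM-scaled counts, and lie 0.08 below the log2 ratio of the printed CPM. A number in brackets after a gene, with no unit, is its log2 change. "Rose" and "fell" mean a Benjamini-Hochberg adjusted p under 0.05 in edgeR's quasi-likelihood test over 15948 genes. By that rule 30.2% of the tested genes rose and 30.7% fell, so a list of genes has to be read against those shares. At least 2-fold changes past the test made up 9.61% (higher) and 10.7% (lower). The median log2 change of all genes was -0.0051.

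The defining genes of the cell type were present at high counts in every library. Cd8a, the CD8 alpha chain, stood at 579.95 and 570.1 CPM alone and 966 and 937 CPM co-cultured, a log2 change of 0.65 (SE 0.066). Cd8b1, Cd3d and Lck, which encode the CD8 beta chain, a CD3 chain and the kinase that starts receptor signalling, did not pass the test. Their log2 changes were 0.089, -0.096 and 0.13. The list of 12 genes of CD8 T cell identity had 4 higher and 4 lower members, and 7 and 2 with an offset for transcript length and GC content (below), under which Cd8b1 (0.22) and Cd3d (0.19) were called higher.

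Markers of other cells moved in both directions. The ILC2 list (20 of 25 genes in the table, 8 higher and 8 lower) summed to 1402 and 1508 CPM alone and 2109.99 and 2113 CPM co-cultured. Most of these sums came from genes that CD8 T cells also express, such as Il2ra, Il7r, Kit and Cxcr6. Il2ra fell (-0.31), while Cd7 (3.82), Kit (3.05), Rora (1.57), Cxcr6 (0.75) and Il7r (0.4) rose. Il1rl1, the interleukin-33 receptor that defines ILC2s, stood at 1.41 and 1.45 CPM alone and 0.695 and 0.388 CPM co-cultured. In the co-cultured CD8 T cells that is 0.031% and 0.0173% of its mean in co-cultured ILC2s (2242 CPM, a separately deposited table). Il5 stood at 10.5 and 9.86 CPM alone and 0.665 and 0.686 CPM co-cultured. Some genes of mast cells, macrophages, platelets and antigen-presenting cells were detected alone and nearly lost in co-culture, and others of the same lists rose or did not pass. Cpa3, a mast cell protease, fell from 11.4 and 8.65 to 0.0151 and 0.0298 CPM, Lyz2, of macrophages, from 3.74 and 2.17 to 0.181 and 0.104 CPM, and the platelet integrin gene Itga2b from 16.99 and 17.03 to 0.589 and 0.671 CPM. Of the other macrophage genes, Csf1r fell (-2.75), Cd68 rose from 13.9 and 13.98 to 30.995 and 29.4 CPM, and 2 did not pass. In the dendritic cell list Cd74, H2-Aa, Batf3 and Zbtb46 fell and Itgax and Ccr7 rose; the call for Zbtb46 (-0.42) was lost without either library alone (-0.377 and -0.465) or co-cultured replicate 1 (-0.305). H2-Ab1, a chain of MHC class II, did not pass (148 and 155 CPM alone and 173 and 172 CPM co-cultured), but was called higher with the offset (0.19). The summed levels of the other lists were 543 and 565 CPM alone and 863 and 792 CPM co-cultured for CD4 and regulatory T cells (3 of 7 higher, 2 lower), 259 and 251 CPM alone and 178 and 174 CPM co-cultured for B cells (0 of 4 higher, 1 lower) and 39.04 and 38.4 CPM alone and 59.98 and 60.3 CPM co-cultured for NK cells (3 of 7 higher, 1 lower). They were 20.8 and 19.1 CPM alone and 34.7 and 32.8 CPM co-cultured for monocytes and macrophages (1 of 5 higher, 2 lower), 2338 and 2631 CPM alone and 3684 and 3407 CPM co-cultured for dendritic cells (2 of 9 higher, 4 lower, nearly all of the sum from Ccr7, which T cells express) and 51.99 and 55.3 CPM alone and 167 and 164 CPM co-cultured for stroma, endothelium and epithelium (3 of 3 higher, Pecam1 with the highest CPM). The mast cell and granulocyte list had 1 of 10 genes in the table and the red cell and platelet list 3 of 10, and the deposited table holds no 0 in any library. Both tested red cell and platelet genes fell. In bulk RNA, fewer cells of a type and less RNA per cell cannot be told apart.

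Transcript length moved with the comparison. Genes with a median transcript length of up to 500 bases had a median log2 change of -0.37, and those of 4000 to 6000 bases a median of 0.28 (Spearman's rho across 14479 genes 0.28 with length and 0.14 with GC content, a description, since genes are not independent). A refit with an offset for length and GC content, added after these data were seen, called 29% of genes higher and 30% lower. The counts of that refit are given beside lists of short genes, and where it turned the more frequent direction of a process list or moved a count of it by over 1.5 times. Whether length acts through RNA quality, library preparation or the cells was not tested.

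**Figure D1:**
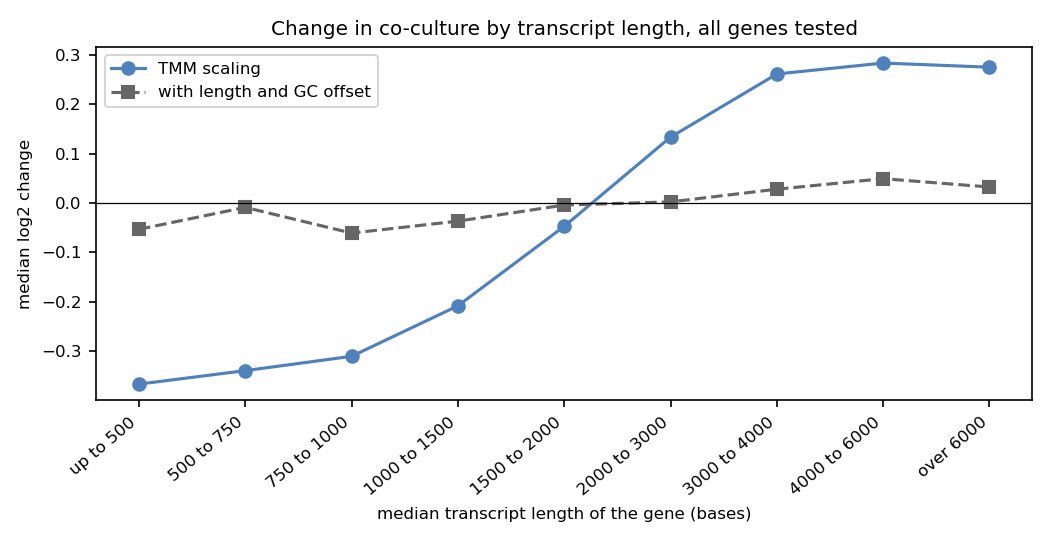
Median log2 change of all tested genes (y axis) in bins of median transcript length in bases (x axis), with TMM scaling (circles) and with the length and GC offset (squares). The medians run from -0.37 in the shortest bin to 0.28 at 4000 to 6000 bases with TMM scaling, and stay between -0.06 and 0.05 with the offset. The offset was fitted to length in these same libraries, so its flat medians follow from the fit and are no check of it.

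Over the 36 process lists, rises were most frequent in the list of lipid and drug efflux pumps and related carriers (19 of 25). Effector and memory transcription factors (39 of 59) and T cell receptor signalling (31 of 49) came next. Falls were most frequent among the respiratory chain (68 of 71), ribosome biogenesis (55 of 59), mitochondrial ribosome and import (44 of 52) and DNA replication (33 of 40). The shares of genes tested that rose or fell were near 30% in both directions.

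**Figure D2:**
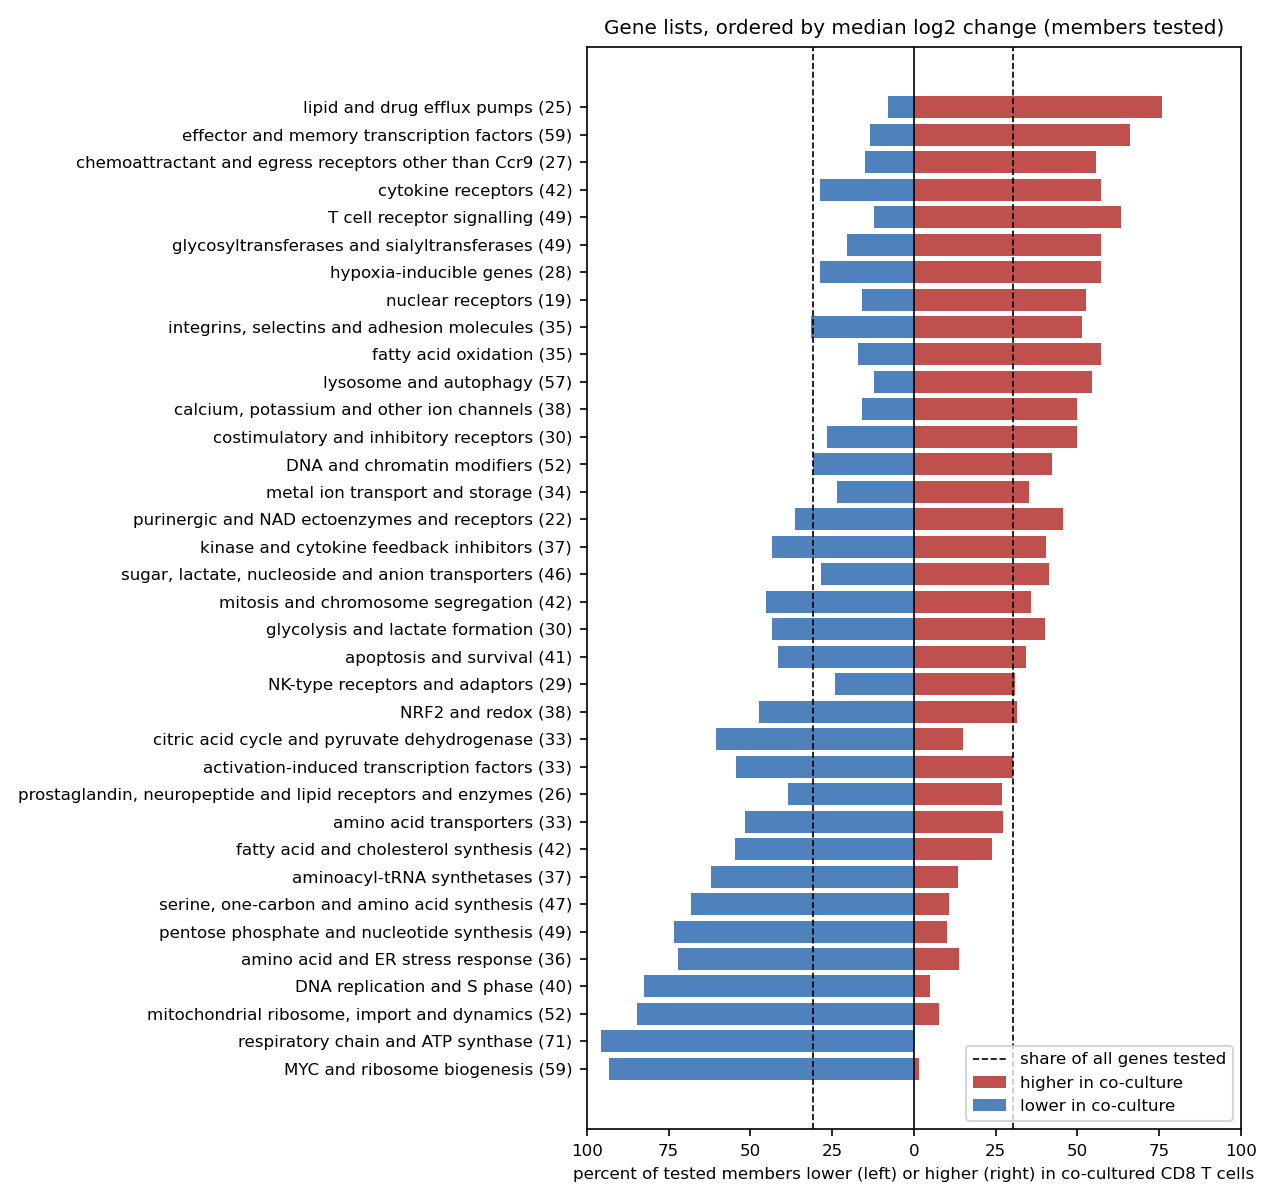
Percent of the tested members of each process list that fell (left, blue) or rose (right, red) in co-cultured CD8 T cells, with the number tested in brackets and lists ordered by median log2 change. The dashed lines mark the shares of all tested genes, 30.7% lower and 30.2% higher. The bars run from 76% higher in the efflux pump list, which includes related carriers, to 95.8% lower in the respiratory chain.

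Transcription factors that shape effector and memory CD8 T cells were mostly higher in co-culture. The 59 tested had a median log2 change of 0.56: 39 rose and 8 fell (35 and 8 with the length and GC offset). Stat3, which relays signals of interleukin-6, interleukin-10 and interleukin-21, stood at 963 and 1152 CPM alone and 2837 and 2957 CPM co-cultured, the largest rise in CPM of any gene outside the cytokine and granzyme list. On the log2 scale it rose by 1.37 (SE 0.089, adjusted p = 6.0e-08 by edgeR), and the gene lies on chromosome 11 at 100886806 to 100939594 of GRCm38. Both co-cultured libraries lay above both libraries alone. Stat5b (1.07), Stat5a (0.87), Stat6 (0.56) and Stat4 (0.41), of the same family, also rose, as log2 changes.

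Factors of quiescent and memory T cells rose beside factors of effector differentiation. Foxo1, which maintains naive and memory programmes, stood at 193 and 218 CPM alone and 493 and 572 CPM co-cultured (log2 change 1.29, SE 0.0902). Tcf7, encoding TCF-1, the factor of memory and stem-like T cells, stood at 216 and 233 CPM alone and 486 and 495 CPM co-cultured (1.05, SE 0.073). Bach2 and Bcl6, other genes linked to memory, rose by log2 changes of 0.71 and 2.12, whereas Lef1, the relative of Tcf7, did not pass (0.12). On the effector side, Prdm1, encoding Blimp-1, rose from 5.96 and 6.06 to 13.9 and 13.9 CPM, Eomes by 0.83, Tbx21, encoding T-bet, by 0.42 and Zeb2 by 0.805. The call for Tbx21 was lost with the offset (0.028). Runx3, a factor of the CD8 lineage and of tissue residency, rose by 0.72.

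The largest relative rises in the list were those of Hic1, Ahr and Bcl6. Hic1, a zinc finger repressor, stood at 18.6 and 18.4 CPM alone and 137 and 157 CPM co-cultured (2.91, SE 0.0898). Ahr, a ligand-activated factor of barrier-tissue lymphocytes, rose from 2.03 and 1.79 to 10.5 and 11.6 CPM. Irf8, an interferon regulatory factor induced in activated CD8 T cells, stood at 891 and 931 CPM alone and 1754 and 1715 CPM co-cultured (0.85). Falls were fewer and smaller in CPM. Id3, an inhibitor of E proteins found in memory precursors, fell by 1.13 on the log2 scale, Nfil3, a basic leucine zipper factor, by 0.696 and Gata3 by 0.605. Without genes at least 4 times higher in an ILC2 group, such as Gata3, 3 members fell. Satb1, a chromatin organiser, had the highest CPM of the members that did not pass (692 and 709 CPM alone and 798 and 859.5 CPM co-cultured).

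Factors induced within hours of T cell receptor triggering split, and more fell than rose. Of 33 tested, 10 rose and 18 fell (6 and 21 with the offset). Jun, a subunit of AP-1, rose from 66.2 and 74.3 to 259.8 and 296 CPM (1.903, SE 0.0898), with Nfatc3 (1.18), Egr1 (0.72) and Nr4a1 (0.66). Batf3, Atf3 and Atf4, basic leucine zipper factors that pair with AP-1 or C/EBP proteins, had the largest falls, of 3.55, 2.66 and 1.6 on the log2 scale. Egr2, Egr3, Batf and Nfkb2 fell by less than 1 each. Myc, the driver of growth metabolism, stood at 608 and 736 CPM alone and 789 and 834 CPM co-cultured and did not pass (adjusted p = 0.084 by edgeR). Jun, Egr1, Nr4a1 and Atf3 are also in the list of genes sensitive to cell handling, of which 6 of 19 rose and 8 fell. Their part in these changes was not tested.

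Among nuclear receptors, ligand-activated transcription factors for lipids and hormones, 10 of 19 rose and 3 fell. Rara, a retinoic acid receptor, stood at 46.6 and 54.7 CPM alone and 97.4 and 116 CPM co-cultured (0.995, SE 0.104), and its paralogue Rarg rose by 1.23. Nr1h2, an oxysterol receptor (LXR beta), rose by 0.87. Pparg (-3.53) and Rxra (-2.43) fell, from levels under 5 CPM, and both were at least 4 times higher in an ILC2 group. Nr3c1, the glucocorticoid receptor, did not pass, at 48.4 and 46.7 CPM alone and 47.9 and 54.2 CPM co-cultured.

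Cytokine receptor genes rose in 24 of 42 cases and fell in 12, or in 5 without genes at least 4 times higher in an ILC2 group. Both chains of the interferon gamma receptor were higher. Ifngr1 stood at 334 and 377 CPM alone and 1527 and 1508 CPM co-cultured (2.01, SE 0.079, edgeR adjusted p = 1.3e-09), and Ifngr2 rose by 1.54. The type I interferon receptor genes Ifnar1 (1.24) and Ifnar2 (0.77) moved the same way, as did the interleukin-18 receptor genes Il18r1 (1.5) and Il18rap (1.57). Il6st, the shared gp130 chain that signals through STAT3, rose from 13.5 and 12.7 to 58.2 and 61.5 CPM (2.11, SE 0.089). Kit, the stem cell factor receptor, had the largest rise of the list (3.05), and in the co-cultured CD8 T cells it was above its mean in the separately deposited co-cultured ILC2s (146.4 CPM).

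The transforming growth factor beta receptor genes Tgfbr2 (1.25) and Tgfbr3 (1.45) rose, while Tgfbr1 did not pass (-0.199). Il4ra stood at 209 and 219.8 CPM alone and 428 and 444 CPM co-cultured (0.94), and Il12rb2, of the interleukin-12 receptor, at 413 and 477 CPM alone and 825 and 816 CPM co-cultured (0.801). The chains of the interleukin-2 receptor fell or did not pass. Il2rb fell by 0.31 on the log2 scale and Il2ra by 0.31, whereas Il2rg, the shared gamma chain, did not pass (-0.069). Il7r, the receptor that sustains memory cells, rose by 0.399. Csf2rb (-1.99) and Csf2ra (-0.62), of the GM-CSF receptor, and Il15ra (-0.53) fell. Csf2rb is carried by myeloid and mast cells too, whose genes moved in both directions (Cpa3 and Lyz2 lower, Cd68 and Itgax higher, above). Their part was not tested.

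**Figure D3:**
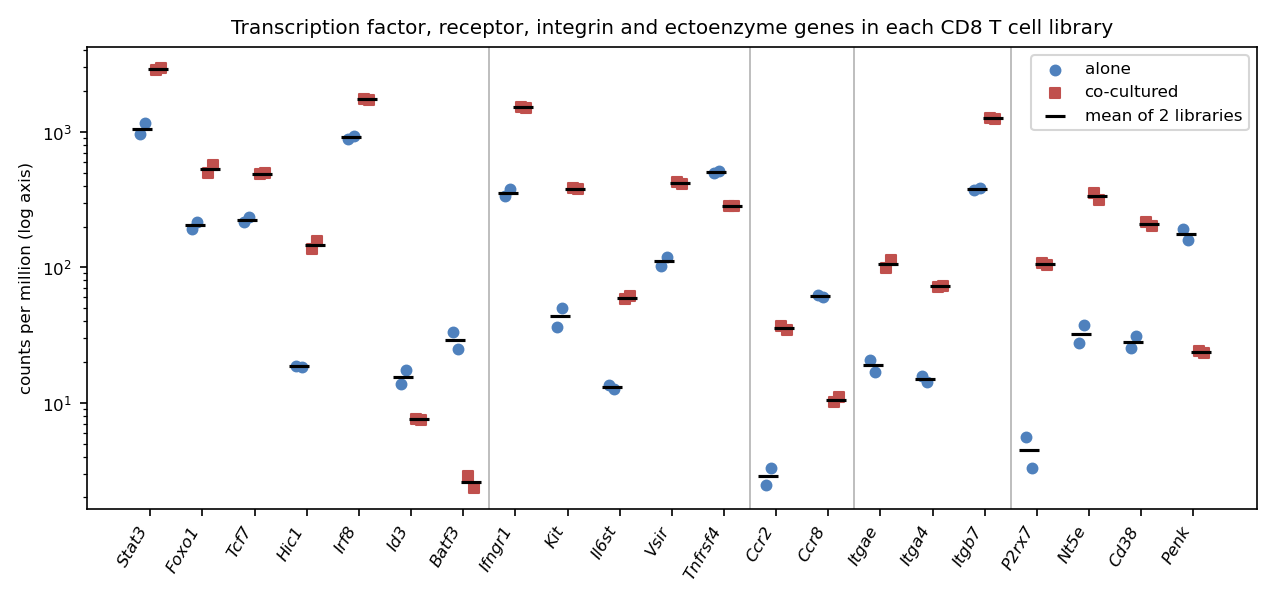
CPM (log axis) of 21 transcription factor, receptor, integrin and ectoenzyme genes in each CD8 T cell library, alone (circles) and co-cultured (squares), with the mean of both libraries as a bar. Ccr2 and P2rx7 stood under 6 CPM alone and above 30 CPM co-cultured.

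Costimulatory and inhibitory receptor genes rose in 15 of 30 cases and fell in 8. Vsir, encoding the inhibitory receptor VISTA, stood at 103 and 119 CPM alone and 428 and 414 CPM co-cultured (1.84, SE 0.083). Both receptors of tumour necrosis factor rose, Tnfrsf1b by 1.503 and Tnfrsf1a by 1.16, and so did the death receptor gene Fas (0.89). Tnfrsf4, encoding the costimulator OX40, fell from 501 and 514 to 285 and 282 CPM, Cd28 by 0.64 on the log2 scale and Pdcd1, encoding PD-1, by 0.63. Among the other genes that mark exhausted cells, Havcr2 (0.014) and Tigit (-0.11) did not pass, and Ctla4 rose by 0.47. Tnfrsf18, encoding GITR, had the highest CPM of the members that did not pass (692 and 663 CPM alone and 664 and 639 CPM co-cultured).

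NK-type receptors and adaptors stayed near the background, with 9 of 29 higher and 7 lower (4 and 2 of those with at least 10 CPM in 2 libraries). These genes are short (median transcript 1201 bases), and with the offset 11 rose and 6 fell. Their median log2 change went from -0.13 to 0.14 with it. Klrk1, encoding the activating receptor NKG2D, stood at 247 and 303 CPM alone and 536 and 510.5 CPM co-cultured (0.85, SE 0.093), and the inhibitory pair Klrc1 (0.45) and Klrd1 (0.32) rose by less. With the offset the values were 1.22 for Klrk1, 0.88 for Klrc1 and 0.88 for Klrd1. Sh2d1a, encoding the adaptor SAP of SLAM family receptors, fell by 1.48 on the log2 scale. The Klra genes are near-identical copies, so their single values are uncertain.

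Receptors that guide cells through tissues and out of lymphoid organs were mostly higher, with 15 of 27 up and 4 down. The inflammatory chemokine receptor gene Ccr2 rose from 2.49 and 3.28 to 36.6 and 34.3 CPM (3.53, SE 0.14) and Ccr1 from 3.08 and 2.803 to 15.9 and 13.03 CPM. Ccr7, the receptor for entry into lymph nodes, was already high and rose from 2076 and 2378 to 3490.1 and 3211 CPM (0.51). S1pr1, which lets T cells leave lymph nodes, rose from 22.7 and 26.3 to 57.4 and 60.3 CPM (1.18, SE 0.094). The receptors of skin- and type 2-associated chemokines fell: Ccr8 from 62.1 and 60.01 to 10.05 and 10.99 CPM and Ccr4 by 1.78 on the log2 scale. Cxcr3, of type 1 T cells, fell by 0.73. Cxcr6, of resident T cells, rose by 0.75.

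Ccr2 and Ccr1 belong to 7 of the 120 named rises whose genes were at least 4 times higher in an ILC2 group. Co-cultured CD8 T cells held Ccr2 at 5.57% and Ccr1 at 4.7% of the level in co-cultured ILC2s. The other genes of that kind were Ecm1 (5.97%), Slc41a2 (12.4%), Rora (17.6%), Osgin1 (23%) and Txnip (23.1%). In the same libraries the shares of other ILC2 list genes varied. They were 0.031% and 0.0173% for Il1rl1, 0.0432% and 0.0504% for Arg1 and 0.0445% and 0.0459% for Il5, which fell. For Nmur1 (0.476% and 0.282%) and Ltb4r1 (1.08% and 1.12%), which did not pass, they were higher. Bmp7, which rose (2.43), stood at 11.6% and 12%. The part of ILC2 RNA in these rises was not tested.

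Integrin and adhesion genes rose in 18 of 35 cases and fell in 11. The subunits that pair with beta 7 integrin rose together with it. Itgae, whose product binds E-cadherin on epithelium as alpha E beta 7, stood at 20.8 and 16.9 CPM alone and 98.3 and 112 CPM co-cultured (2.403, SE 0.11). Itga4, whose product forms the gut-homing alpha 4 beta 7, stood at 15.7 and 14.2 CPM alone and 71.8 and 72.7 CPM co-cultured (2.19, SE 0.086), and Itgb7, the shared chain, at 375 and 385 CPM alone and 1271 and 1239.8 CPM co-cultured (1.64, SE 0.069). Itgb2, the beta chain of LFA-1, rose from 549.9 and 618 to 1670.3 and 1603 CPM. The adhesion molecule genes Pecam1 (1.73) and Emb (1.403) rose as well. Itgb1 (-0.032) did not pass, and Cd44, the memory marker, fell by 0.397 on the log2 scale. Ly6c2, of the Ly6 cluster, had the largest fall (-2.71), although its near-identical neighbour Ly6c1 may share its reads.

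Enzymes that build cell surface glycans rose in 28 of 49 cases and fell in 10. Gcnt1, which makes the core 2 branch that carries selectin ligands on T cells, rose from 1.77 and 2.295 to 12.1 and 10.7 CPM (2.4, SE 0.17), and Gcnt2, which branches poly-lactosamine, by 3.17. Fut7, the fucosyltransferase that completes selectin ligands, fell from 9.53 and 9.97 to 0.6196 and 0.581 CPM (-4.097). Selplg, the scaffold protein of those ligands, rose by 0.81. St6gal1 (1.13), Chst15 (1.72) and Galnt6 (1.23) rose and Galnt3 fell (-2.67). St3gal1, which sialylates core 1 glycans on CD8 T cells, did not pass (64.1 and 72.3 CPM alone and 74.9 and 68.2 CPM co-cultured).

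Genes that handle extracellular ATP, adenosine and NAD showed large rises. P2rx7, an ATP-gated ion channel of T cells, stood at 5.58 and 3.31 CPM alone and 107 and 104 CPM co-cultured (4.497 on the log2 scale, SE 0.16, adjusted p = 5.3e-10 by edgeR). It lies on chromosome 5 at 122643927 to 122692336 of GRCm38. Entpd1, encoding CD39, which strips ATP to AMP, rose from 9.84 and 7.22 to 70.6 and 61.8 CPM (2.88, SE 0.13). Nt5e, encoding CD73, which turns AMP into adenosine, stood at 27.5 and 37.2 CPM alone and 356 and 314 CPM co-cultured (3.29, SE 0.13). Both steps of the surface pathway from ATP to adenosine were therefore higher at the RNA level. Adora2a, the adenosine receptor that dampens T cells, rose by 0.905, while Adora2b fell by 0.74 on the log2 scale. Adk, the kinase that removes adenosine inside the cell, fell from 233 and 209.5 to 69.4 and 66.01 CPM (-1.79), and Ada, the deaminase, did not pass (-0.18). The NAD glycohydrolase genes Cd38 (2.801) and Bst1 (2.49), which are neighbouring paralogues, rose together. Over the whole list 10 of 22 rose and 8 fell, 7 and 3 of them at least 2-fold. Without alone replicate 2, 4 members fell, and without co-cultured replicate 1, 5.

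Receptors and enzymes of prostaglandins, leukotrienes and neuropeptides went down in 10 of 26 cases and up in 7. The prostaglandin E2 receptor genes Ptger4 (-1.62) and Ptger2 (-1.37) fell, as did the receptor modifiers Ramp3 (-2.17) and Ramp1 (-1.67) and their partner Calcrl (-1.16), which together form receptors for calcitonin gene-related peptide and adrenomedullin. Penk, encoding the opioid precursor proenkephalin, fell from 192 and 159 to 24.3 and 23.2 CPM. The cannabinoid receptor gene Cnr2 rose (1.01). Alox5, the leukotriene-forming lipoxygenase of myeloid cells, fell from 12.4 and 10.8 to 0.166 and 0.149 CPM. Without the genes that were at least 4 times higher in an ILC2 group, 5 members of this list fell instead of 10. The mast cell gene Cpa3 fell from a similar level, while of the 5 macrophage genes tested 2 fell, 1 rose and 2 did not pass. The part of such cells was not tested.

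T cell receptor signalling genes were mostly higher, with 31 of 49 up and 6 down. Txk, a Tec family kinase, stood at 58.7 and 74.1 CPM alone and 441 and 408 CPM co-cultured (2.59, SE 0.105), and Plcg1, which produces the calcium and diacylglycerol signals, at 54.5 and 60.8 CPM alone and 145 and 162 CPM co-cultured (1.33). Malt1, of the branch that leads to NF-kappa B, rose by 1.08, while Bcl10 did not pass (0.071). Zap70 (0.67), Prkcq (0.74), Rasgrp1 (0.94) and Cd3e (0.79) rose. Among genes of the list that restrain the same pathway, more rose than fell. Dgkz (0.62), Sla2 (0.93), Cbl (0.46), Cblb (0.35), Itch (1.17), Dok1 (0.47), Rasa2 (0.42) and Rasal3 (0.96) rose. With the offset the calls for Dgkz (0.104) and Cblb (0.084) were lost. Ptpn22 (0.903), Csk (0.78), Ubash3b (1.27) and Dgka (0.86) rose, Cd5 (-0.38) and Dok2 (-0.48) fell, and Ptpn6 (-0.16), Ptpn2 (-0.046), Ubash3a (0.028), Pag1 (0.33) and Sla (0.075) did not pass. Ptpn6 was called lower without alone replicate 1 (-0.267), Pag1 higher without co-cultured replicate 1 (0.574) and Ptpn2 higher with the offset (0.22). The adaptor genes Lat and Lcp2, encoding LAT and SLP-76, fell from 257 and 278 to 163 and 163 CPM and from 604 and 617 to 381 and 373 CPM. Cd4 also rose, at a low level, from 1.01 and 1.21 to 9.76 and 9.35 CPM.

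Feedback inhibitors of kinases and cytokine signals divided, 15 of 37 up and 16 down. Socs3, which limits STAT3 signalling, stood at 24.4 and 30.3 CPM alone and 114 and 118 CPM co-cultured (1.997, SE 0.101), and Tnfaip3, encoding the NF-kappa B inhibitor A20, at 126 and 159.8 CPM alone and 423 and 422 CPM co-cultured (1.48). Socs2 (-4.29) and Socs1 (-0.36), which limit other cytokine signals, fell. The ERK phosphatase gene Dusp6 fell from 54.4 and 70.2 to 25.9 and 26.3 CPM and the G protein regulators Rgs1 (-1.01) and Rgs2 (-0.77) with it.

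Ion channel and pump genes rose in 19 of 38 cases and fell in 6 (16 and 9 with the offset). Of the store-operated calcium entry machinery, the sensor Stim1 rose by 0.83 and Stim2 by 0.56, whereas the pore genes divided. Orai1 fell from 144 and 154 to 82.8 and 84.3 CPM and Orai3 fell by less (-0.3), while Orai2 rose (0.61). Atp2a3, the calcium pump of the endoplasmic reticulum in lymphocytes, stood at 104 and 113 CPM alone and 230.01 and 239.7 CPM co-cultured (1.03). Kcna3, the potassium channel of effector memory T cells, rose by 0.78. Kcnc1, a voltage-gated potassium channel gene outside the list, rose from 3.93 and 3.56 to 39.8 and 45.6 CPM.

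Of the genes that T cells use to obtain, make and charge amino acids, more fell than rose. When amino acids run short, or the endoplasmic reticulum is stressed, the factor ATF4 is made and, with C/EBP partners, binds a response element in the promoters of synthesis, transport and tRNA charging genes. Across the 4 lists of this system 95 of 150 distinct members fell and 24 rose, with a median log2 change of -0.54, against 30.7% and 30.2% of all genes. The response list itself had 26 of 36 lower and 5 higher (26 and 1 with the offset). Chac1, a glutathione-degrading target of ATF4, stood at 28.01 and 26.9 CPM alone and 1.41 and 1.998 CPM co-cultured (-4.09, SE 0.16, edgeR adjusted p = 1.2e-09). Trib3 (-2.51), Stc2 (-3.85) and Sesn2 (-1.34), other genes induced by that response, fell with it. Chaperones of the endoplasmic reticulum fell as well, Hspa5 by 0.71, Hsp90b1 by 0.64 and Sdf2l1 by 1.83 on the log2 scale. Edem1, of protein disposal from that compartment, rose by 0.67.

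Serine, one-carbon and amino acid synthesis genes fell in 32 of 47 cases and rose in 5. The rises were 2 without alone replicate 1 or co-cultured replicate 1, and 1 without co-cultured replicate 2. Asns, the asparagine synthetase gene on chromosome 6 at 7675165 to 7693209 of GRCm38, stood at 693 and 629 CPM alone and 58.7 and 62.8 CPM co-cultured (-3.52, SE 0.081). The 3 steps of serine synthesis moved alike: Phgdh fell by 2.12, Psat1 by 1.58 and Psph by 1.72 on the log2 scale. Of the mitochondrial folate enzymes Mthfd2l fell at a low level (-0.51), a call lost with the offset (-0.22). Shmt2 fell from 632 and 550.3 to 164 and 158 CPM and Mthfd2 from 401 and 377 to 147 and 147 CPM. Aldh1l2 fell by 3.13 on the log2 scale, while Mthfd1l rose (0.2). That call was lost without alone replicate 1 (0.134) or either co-cultured library (0.237 and 0.173), and the value was -0.078 with the offset. Cth, of cysteine synthesis, fell from 304 and 275 to 40.9 and 37.9 CPM (-2.96). Aldh1l1, the cytosolic relative of Aldh1l2, rose by 1.79. Among genes that use glutamate, Got2 (-0.16) did not pass and Glud1 rose (0.22), a call lost without either co-cultured library (0.23 and 0.22).

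The enzymes that charge transfer RNAs fell in 23 of 37 cases and rose in 5. Nars, for asparagine, stood at 375 and 354 CPM alone and 103 and 107 CPM co-cultured (-1.87, SE 0.071) and Tars, for threonine, at 266 and 231 CPM alone and 107 and 103 CPM co-cultured (-1.33, SE 0.078). Lars2, the mitochondrial leucine enzyme, had the largest fall (-2.36). The genes that rose were Aars2, Vars2, Tars2, Hars2 and Qars, the first 4 of them mitochondrial enzymes. With the offset 2 rose.

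Amino acid transporter genes fell in 17 of 33 cases and rose in 9. The large neutral amino acid carrier was lower in both subunits, Slc7a5 from 227 and 203 to 42.9 and 47.7 CPM (-2.33, SE 0.085) and Slc3a2 from 463 and 427 to 205 and 198 CPM (-1.22). Slc7a3 and Slc7a1, carriers of arginine and lysine, fell by 3.58 and 1.02 on the log2 scale. Slc6a9, the glycine transporter, fell from 10.2 and 9.198 to 0.6801 and 1.01 CPM. The glutamine carrier genes divided, with Slc1a5 lower (-0.55) and Slc38a2 not passing (-0.15). Slc43a1 (2.02) and Slc43a2 (0.87), sodium-independent carriers of large neutral amino acids, rose. Slc38a9, the lysosomal arginine sensor of mTORC1, rose by 0.41.

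**Figure D4:**
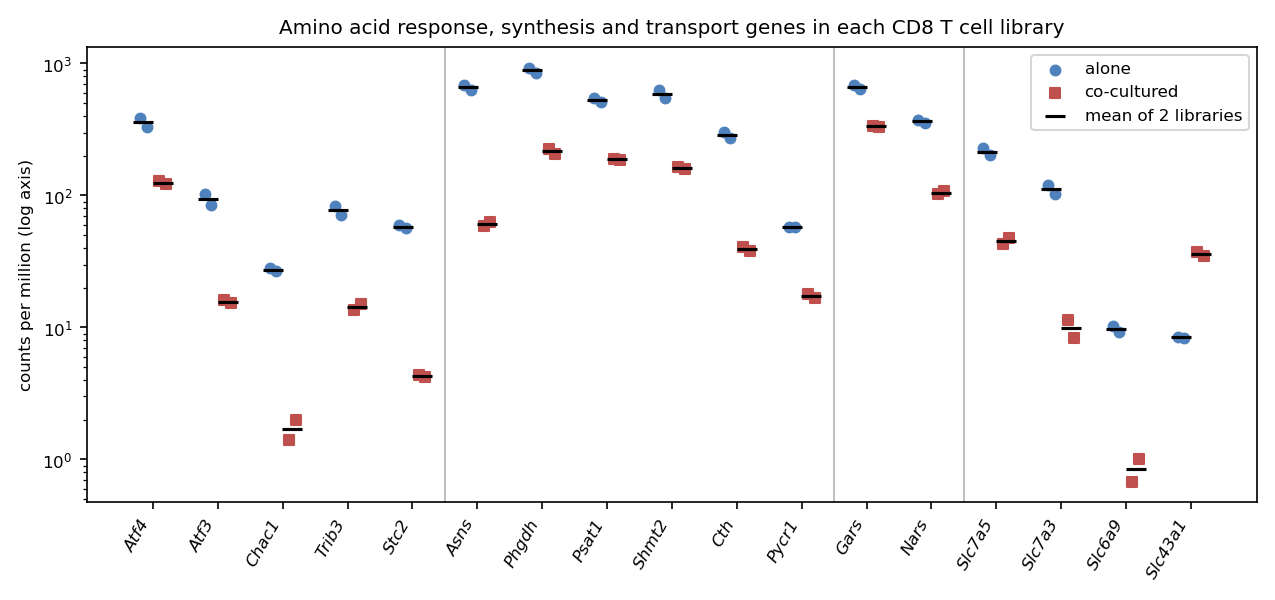
CPM (log axis) of 17 genes of the amino acid response, amino acid synthesis, tRNA charging and amino acid transport in each CD8 T cell library, alone (circles) and co-cultured (squares), with the mean of both libraries as a bar. Asns stood at 693 and 629 CPM alone and 58.7 and 62.8 CPM co-cultured, and Slc43a1 is the gene plotted that rose (2.02).

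The response element that ATF4 binds was looked for in RefSeq promoters of GRCm38.p6, in the 250 bases before each transcription start, as TGATGNAA or its reverse complement TTNCATCA. Of 115 members of the 4 lists with a promoter in that table, 12 (10.4%) held it, against 278 of 11145 tested genes (2.49%) and 3.45% of all 32851 promoter windows. Among tested genes that rose 2.5% held it and among those that fell 2.41%. Of the 12 members 11 fell, and Slc7a7 did not pass. Members with a promoter and no match fell in 61 of 103 cases (59.2%). The call for Got1 was lost without either co-cultured library (-0.24 and -0.22). The 11 that fell were Aars, Asns, Atf3, Chac1, Gars, Got1, Herpud1, Pycr1, Slc7a11, Tars and Vldlr, and the windows of the 5 with the largest falls are shown because the match can be read in them. A match is a description of these letters and not evidence of binding. Each sequence runs 5′ to 3′ on the strand of the gene, and capitals mark the match.
Chac1, chr2:119350992-119351241, plus strand: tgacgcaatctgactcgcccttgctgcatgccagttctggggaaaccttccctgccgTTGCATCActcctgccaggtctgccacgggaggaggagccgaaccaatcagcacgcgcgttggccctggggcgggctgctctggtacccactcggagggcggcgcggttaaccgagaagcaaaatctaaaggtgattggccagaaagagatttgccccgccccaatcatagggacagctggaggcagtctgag
Slc7a11, chr3:50443614-50443863, minus strand: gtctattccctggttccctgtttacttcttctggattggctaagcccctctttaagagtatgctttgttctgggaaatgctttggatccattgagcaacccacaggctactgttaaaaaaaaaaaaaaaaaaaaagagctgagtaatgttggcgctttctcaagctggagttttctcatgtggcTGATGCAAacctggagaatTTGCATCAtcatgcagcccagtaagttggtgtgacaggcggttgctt
Asns, chr6:7693225-7693459, minus strand: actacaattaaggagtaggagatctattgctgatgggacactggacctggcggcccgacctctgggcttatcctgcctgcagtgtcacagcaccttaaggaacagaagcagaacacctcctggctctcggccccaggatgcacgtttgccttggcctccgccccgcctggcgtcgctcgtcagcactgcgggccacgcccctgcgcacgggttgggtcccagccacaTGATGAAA
Atf3, chr1:191183334-191183583, minus strand: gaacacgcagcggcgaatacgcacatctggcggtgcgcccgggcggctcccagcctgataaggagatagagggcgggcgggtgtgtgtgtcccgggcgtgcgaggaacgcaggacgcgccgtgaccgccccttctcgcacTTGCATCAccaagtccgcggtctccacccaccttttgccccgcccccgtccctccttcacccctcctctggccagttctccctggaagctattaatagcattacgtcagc
Pycr1, chr11:120643749-120643998, minus strand: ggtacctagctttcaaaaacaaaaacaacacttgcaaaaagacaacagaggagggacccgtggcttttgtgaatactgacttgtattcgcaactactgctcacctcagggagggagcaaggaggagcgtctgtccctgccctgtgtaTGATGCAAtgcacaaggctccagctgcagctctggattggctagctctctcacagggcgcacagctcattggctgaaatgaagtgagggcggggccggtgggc
Positions are given as bases before the start: the match begins at -193 in Chac1, -66 and -47 in Slc7a11, -23 in Asns, -110 in Atf3 and -103 in Pycr1. The Asns window ends 16 bases before the start. Slc7a11, the cystine carrier, was low in CD8 T cells and fell from 5.98 and 4.43 to 0.514 and 0.268 CPM.

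Mitochondrial respiration genes fell nearly throughout. Of 71 nuclear genes of the respiratory chain and ATP synthase, 68 fell and 0 rose, with a median log2 change of -0.9. They are short (median transcript 645 bases), and with the length and GC offset 64 fell and 2 rose, with a median of -0.62. Ndufa4, of cytochrome oxidase, stood at 81.7 and 76.5 CPM alone and 16.4 and 15.3 CPM co-cultured (-2.399, SE 0.085), Uqcrq, of complex III, at 94.8 and 90.5 CPM alone and 33.8 and 27.1 CPM co-cultured (-1.69) and Atp5b, the catalytic beta subunit of ATP synthase, at 3219.8 and 3189 CPM alone and 1927 and 1875 CPM co-cultured (-0.83). Genes encoded in mitochondrial DNA moved the same way, 12 of 13 protein-coding genes lower, with a median log2 change of -1.09. Their sum was 4623 and 4029 CPM alone and 2456 and 2732 CPM co-cultured. COX1 was the exception (1445 and 1293 CPM alone and 1255 and 1411 CPM co-cultured, not passed), though without alone replicate 2 it was called lower (-0.18). Too few of the mitochondrially encoded genes had a transcript length for the length check, which is void for them.

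Mitochondrial ribosome and import genes fell in 44 of 52 cases and rose in 4 (42 and 4 with the offset). Hspe1 and Hspd1, the partners of the mitochondrial chaperonin, fell by 2.04 and 1.44 on the log2 scale, and the import channel gene Tomm40 by 1.14. The 4 that rose were not ribosome or import genes. They were the fusion genes Mfn2 (0.73), Opa1 (0.55) and Mfn1 (0.34) and the coactivator gene Ppargc1b (1.07). The citric acid cycle list had 20 of 33 lower and 5 higher, with smaller changes (median -0.26). Idh3a fell by 0.74 and Mpc1 and Mpc2, the mitochondrial pyruvate carrier, by 0.74 and 0.96. Ogdh (0.65) and Acly (0.47), which makes cytosolic acetyl-CoA from citrate, rose, and the call for Acly was lost with the offset (0.16).

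Fatty acid oxidation genes went the other way, 20 of 35 higher and 6 lower (21 and 6 with the offset). Cpt1a, the rate-limiting carnitine transferase, stood at 21.1 and 24.04 CPM alone and 60.2 and 61.7 CPM co-cultured (1.35, SE 0.091). The long-chain dehydrogenase genes Acadl (0.48) and Acadvl (0.38) and both chains of the trifunctional protein, Hadha (0.47) and Hadhb (0.38), rose by less than 2-fold. Etfa (-0.896) and Etfb (-1.12), which pass the electrons on to the respiratory chain, fell, and so did the fatty acid binding protein gene Fabp5 (-2.13).

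Fatty acid and cholesterol synthesis genes fell in 23 of 42 cases and rose in 10. Enzymes of the sterol pathway such as Mvd (-1.04), Cyp51 (-0.71) and Sqle (-0.58) fell, whereas its regulators Srebf1 (0.68) and Srebf2 (0.46) rose. The call for Srebf2 was lost with the offset (0.087). Fads2, of polyunsaturated fatty acid synthesis, fell by 1.302 on the log2 scale. Acss1, the mitochondrial enzyme that activates acetate, stood at 36.6 and 41.4 CPM alone and 196 and 202 CPM co-cultured (2.27, SE 0.084), the largest rise in the list.

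Glycolysis genes divided into 12 higher and 13 lower of 30 (13 and 11 with the offset). The abundant enzymes of the lower pathway fell, Ldha from 10357 and 11047 to 6841 and 6679.9 CPM (-0.74), Eno1 by 0.42, Pgk1 by 0.57 and Tpi1 by 0.49 on the log2 scale. Pkm (-0.098) and Gapdh (-0.19) did not pass, though Gapdh was called lower without alone replicate 1 (-0.25) or co-cultured replicate 2 (-0.305). Regulators rose instead: Pfkfb4 (1.43) and Pfkfb3 (0.71), whose enzymes make the activator of phosphofructokinase, and Pdk1 (0.69) and Pdk2 (1.26), which hold pyruvate back from the mitochondrion. Summed over the list, CPM were 54747 and 59614 alone and 48305 and 48267 co-cultured.

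Hypoxia-inducible genes rose in 16 of 28 cases and fell in 8. Hif1a, the oxygen-sensing factor, and Arnt, its partner, rose by 1.503 and 1.18. Ndrg1 (0.89), P4ha1 (0.77) and Egln1 (0.63) rose, while Fam162a (-0.64) and Higd1a (-1.47) fell and Vegfa did not pass (0.099).

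**Figure D5:**
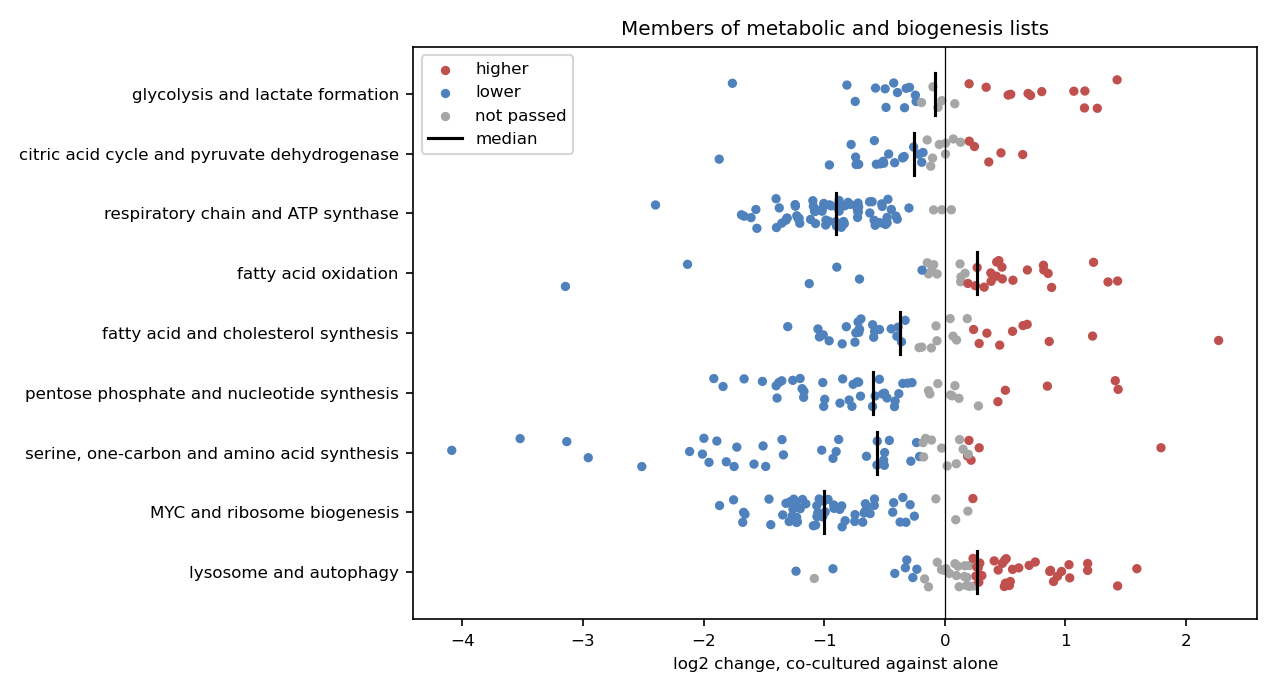
Log2 change, co-cultured against alone (x axis), of each tested member of 9 metabolic and biogenesis lists (points, red higher, blue lower, grey not passed), with the list median as a black line. The respiratory chain and ribosome biogenesis lists lie left of 0 with medians of -0.9 and -1, while fatty acid oxidation and lysosome lists have medians of 0.27 and 0.26.

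Nucleotide synthesis genes fell in 36 of 49 cases and rose in 5. Tyms, which makes thymidylate, stood at 94.9 and 68.2 CPM alone and 22.7 and 22.9 CPM co-cultured (-1.92). Genes of purine synthesis such as Pfas (-1.38), Gart (-0.77) and Hprt (-1.2) and of the pentose phosphate route such as Taldo1 (-0.699) and Tkt (-0.38) also fell. Nme1 and Nme2 are close copies that may share reads. Samhd1, which degrades deoxynucleotides, rose from 339.6 and 361 to 1040.3 and 966 CPM (1.44, SE 0.074), and the mitochondrial thymidine kinase gene Tk2 by 1.41.

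Ribosome production was lower in nearly all of its genes. In the MYC and ribosome biogenesis list 55 of 59 fell and 1 (Surf6) rose, or 0 without co-cultured replicate 2, with a median log2 change of -1, and the offset left 56 and 1. Fbl, the methyltransferase of ribosomal RNA, stood at 234 and 206 CPM alone and 80.2 and 89.05 CPM co-cultured (-1.46, SE 0.083), and the nucleolar proteins Ncl (-1.23) and Npm1 (-1.02) fell with it. Ribosomal protein genes, which have many near-identical copies in the genome, fell in 79 of 84 cases with 0 higher (69 and 0 with the offset, median transcript 713 bases). Myc itself, as given above, did not pass the test.

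DNA replication genes fell in 33 of 40 cases and rose in 2 (32 and 0 with the offset), while mitosis genes were split, 15 higher and 19 lower of 42 (9 and 15 with the offset). Ccne2, which drives entry into S phase, fell from 39.99 and 33.1 to 10.9 and 8.04 CPM, and Pcna, the clamp of the replication fork, from 492 and 428 to 247 and 253 CPM. Mcm6, a helicase subunit, did not pass (872 and 828 CPM alone and 844 and 871 CPM co-cultured), though Mcm2 (-0.804), Mcm5 (-0.76), Mcm3 (-0.57), Mcm7 (-0.44) and Mcm4 (-0.36) fell. With the offset Mcm6 was called lower (-0.27), and the calls for Mcm7 (-0.15) and Mcm4 (0.09) were lost. In mitosis Cdk1 fell by 0.89 on the log2 scale and Ube2c by 0.78, whereas the condensin gene Ncapd2 (0.68) and the kinesin gene Kif23 (0.38) rose. Of the 42 mitosis genes 0 changed at least 2-fold.

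DNA and chromatin modifier genes rose in 22 of 52 cases and fell in 16, a balance that turned to 18 higher and 25 lower with the length and GC offset. The catalytic subunits of Polycomb complex 2 moved in opposite directions. Ezh2, of dividing cells, stood at 244 and 239 CPM alone and 131 and 131 CPM co-cultured (-0.96, SE 0.068), and Ezh1, of resting cells, at 42.7 and 47.8 CPM alone and 169 and 169.95 CPM co-cultured (1.83, SE 0.081). The core partners Eed (-0.92) and Suz12 (-0.39) fell. The class IIa deacetylase genes Hdac5 (1.44) and Hdac4 (0.77) rose and the class I genes Hdac1 (-0.51), Hdac2 (-0.59) and Hdac3 (-0.22) fell. Hdac7, a class IIa gene with higher CPM than Hdac4 and Hdac5, rose by 0.33 but was called lower with the offset (-0.21). Hmgb2, a DNA-bending protein of cycling cells, fell from 1591 and 1371 to 497 and 507 CPM.

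Lysosome and autophagy genes rose in 31 of 57 cases and fell in 7 (35 and 3 with the offset). The kinase Ulk1, which starts autophagy, rose by 1.18, the sulfatase gene Arsb by 1.59, the cathepsin gene Ctsb by 1.18 and Lamp1, of the lysosomal membrane, by 0.44. Tfeb, their transcription factor, did not pass (0.16). Redox and NRF2 target genes fell in 18 of 38 cases and rose in 12. Prdx1 and Txn1, which reduce peroxides and disulfides, fell from 592 and 492 to 163 and 169 CPM and from 247 and 230.2 to 88.9 and 94.03 CPM. Txnip, which binds thioredoxin and limits glucose uptake, rose from 156 and 177 to 524 and 515 CPM, and Ncf1, of the NADPH oxidase, from 153 and 175 to 603 and 568 CPM.

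Carriers of sugars, nucleosides and anions rose in 19 of 46 cases and fell in 13, but with the offset 17 rose and 19 fell. The glucose carriers moved apart. Slc2a3 stood at 1340.04 and 1744 CPM alone and 2826 and 2782 CPM co-cultured (0.78, SE 0.104) and Slc2a1, the carrier induced on activation, at 526 and 529 CPM alone and 427 and 422 CPM co-cultured (-0.39, SE 0.066). The lactate exporter gene Slc16a3 did not pass (-0.08). Slc44a2, a choline carrier, rose by 1.37, and the potassium-chloride carrier gene Slc12a7 rose (1.78) while the sodium-coupled Slc12a2 fell (-0.91).

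The list of lipid and drug efflux pumps had the highest share of rises, 19 of 25, with 2 lower (19 and 4 with the offset). It also holds carriers that are not efflux pumps, such as Npc1 (0.59), Npc2 (0.46), Mfsd2a (0.33) and Atp11b (0.79), which rose. Abcb1a, encoding the multidrug pump P-glycoprotein, stood at 11.4 and 12.5 CPM alone and 34.05 and 30.4 CPM co-cultured (1.35, SE 0.11), whereas its copy Abcb1b did not pass (-0.21). Abcb4, a phospholipid flippase, rose from 4.61 and 6.55 to 27.3 and 31.3 CPM and Abcg2 by 1.31. Of metal ion genes 12 of 34 rose and 8 fell. Iron uptake and storage genes fell, Tfrc by 1.33 and Fth1 by 0.44 on the log2 scale (Fth1 not with the offset, -0.14), and Ncoa4, which releases iron from ferritin, rose by 0.89.

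Apoptosis genes were split, with 14 of 41 higher and 17 lower. The death inducer gene Bcl2l11, encoding BIM, rose from 41.9 and 45.9 to 131 and 143 CPM, and Bax (-0.98), Bid (-0.97) and Bbc3 (-0.79), which act in the same direction, fell. Of the survival genes Bcl2 (-0.399) and Bcl2l1 (-1.25) fell, and Mcl1 (0.46) and Birc2 (1.83) rose. Trp53 (-0.86) and its target Cdkn1a (-1.12) fell. Members of the Gimap and Bcl2a1 families share sequence, so their values are uncertain.

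Over all genes outside the cytokine and granzyme list and predicted genes, with a mean of at least 16 CPM, the largest rises were those of Filip1, Osgin1, P2rx7, Cd7, Tgm2, Ccr2, Smtn, Kcnc1, Lztfl1, Nt5e, Rem2 and Ecm1. Tgm2, encoding a protein cross-linking transglutaminase, had the highest CPM of them in co-culture (54.7 and 52.8 CPM alone and 763 and 787 CPM co-cultured; 3.77 on the log2 scale, SE 0.076, adjusted p = 5.9e-12 by edgeR). It lies on chromosome 2 at 158116405 to 158146392 of GRCm38. Filip1, encoding a filamin-binding protein, rose from 4.84 and 9.13 to 161 and 185 CPM (4.54) and Lztfl1, of ciliary protein traffic, from 32.6 and 32.3 to 341 and 351 CPM (3.34). Cd7, a T and NK cell surface protein, rose from 16.01 and 16.9 to 255 and 236 CPM and stood at 3.97 CPM in co-cultured ILC2s.

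The 12 largest falls were those of Serpina3g, Cd74, Lad1, Stc2, Slc7a3, Asns, Ciart, Penk, Cth, Selp, Ly6c2 and Galnt3. Serpina3g, a serine protease inhibitor, fell from 120.5 and 98.2 to 2.45 and 1.71 CPM (-5.79), a value that near-identical copies of the gene make uncertain. Lad1, encoding ladinin, fell from 141 and 98.4 to 3.82 and 4.67 CPM and Ciart, a circadian repressor, from 39.6 and 33.4 to 3.703 and 4.55 CPM. Cd74, the MHC class II chaperone of antigen-presenting cells, fell from 59.9 and 53.9 to 1.66 and 1.89 CPM and Selp, of platelets and endothelium, from 50.1 and 65.1 to 8.05 and 8.57 CPM. H2-Aa (10.6 and 8.48 to 0.166 and 0.149 CPM) and Itga2b, of the same cell types, fell too, whereas the MHC class II gene H2-Ab1 did not pass (0.11) and Itgax rose (2.18). The part of such cells was not tested.

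In CPM, the 10 largest rises included those of Stat3, Slc2a3, Eef1a1, Ccr7, Itgb2, Itgb7, Irf8, Serpinb6b and Tgm2. Among them Serpinb6b has near-identical copies. The 10 largest falls were those of Actb, Ldha, Eno1, Ppia, Atp5b, Eif5a, Ptma, Hmgb2, B2m and Hnrnpa2b1. Actb, the cytoskeletal actin often used as a reference, fell from 19127 and 18553 to 9113 and 10728 CPM (-1.005, SE 0.083), and B2m, the light chain of MHC class I, from 2312 and 2222 to 1224 and 1386 CPM (-0.88).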

How the data were processed

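Bulk RNA-seq was analysed in 4 CD8 T cell libraries, 2 alone and 2 co-cultured. The authors deposited read counts per gene symbol. Per the submitters' processing notes the tools were Trimmomatic 0.38, HISAT2 2.1.0, SAMtools 1.9 and StringTie 2.1.3b on mm10; the annotation and the strand setting were not given in the sources used here. A gene with a count of 0 in any library has no row, so 17642 genes were present and 15948 passed edgeR's filterByExpr. TMM factors and the quasi-likelihood test (edgeR 4.0.16, R 4.3.3, no covariate, Benjamini-Hochberg adjusted p under 0.05) gave log2 changes, with SE as the change divided by the root of F. The fit was tested on simulated data. Replicates of a group differed beyond sampling noise. CPM were computed per library total. Depth was high, 52664716 to 67076905 counts, so counting error was small for named genes with many counts. It was not small for low ones, such as Cpa3 (1 and 2 counts co-cultured) and Lyz2 (12 and 7 counts co-cultured).

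The members and the 36 process lists, 3 quality lists, 10 marker lists and 1 list of cytokines, granzymes and Ccr9 (22 of 70 rose, 36 fell) were chosen with earlier results of these data known. From each process list the rule named up to 3 largest rises and 3 largest falls with a mean of at least 5 CPM, and the most abundant member that did not pass. Over all genes it named the 12 largest changes each way at a mean of at least 16 CPM and the 10 largest CPM differences each way. The other members named were chosen, after their values were seen, for their known roles. Positions and promoters came from RefSeq GRCm38.p6, which matched 95.7% of symbols, and promoters covered 11145 of the tested genes. Transcript lengths and GC content came from GENCODE transcripts of GRCm38, which covered 14479 of the tested genes (90.8%). Alternatives were other scalings, filters and tools (DESeq2 1.42.0, limma 3.58.1), leaving out each library, a replicate block, leaving out ILC2-high genes, and, added after the data were seen, a length and GC offset. Replicate numbers did not pair the samples. Some genes that the rule names are not reported here.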

Additional observations from a re-analysis of the deposited data

How the results depend on the processing

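The count of genes that rose ranged from 3496 (at least 10 CPM in 2 libraries) to 5430 (library totals only) and of those that fell from 3475 (same filter) to 5013 (upper-quartile scaling), against 4810 and 4901. DESeq2 gave 4501 and 4426 and limma-voom 4814 and 4943. Without 1 library each, 4217 to 4520 rose and 4335 to 4572 fell. With the replicate block 4817 rose and 4915 fell, and same-numbered samples did not deviate together (correlation -0.027 over 2 pairs). The length and GC offset gave 4618 and 4779, and 4569 and 4754 with the replicate block. Leaving out ILC2-high genes gave 4493 and 4562.

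In 28 of 36 process lists the more frequent direction was the same in all 15 settings. The exceptions were NK-type receptors, prostaglandin and neuropeptide genes, feedback inhibitors, sugar carriers, glycolysis, chromatin modifiers, apoptosis and mitosis. With at least 10 CPM in 2 libraries 4 NK-type genes rose instead of 9, since fewer genes were tested. Without ILC2-high genes 5 prostaglandin and neuropeptide genes fell. With the length and GC offset, without and with the replicate block, Cd3d turned to 0.187 in both, Il2rg to 0.203 in both, Ptpn2 to 0.224 and 0.223, Mthfd1l to -0.0777 and -0.077 and Pold1 to -0.0701 and -0.0694, the cause of which was not tested. Calls were compared between settings for a chosen set of genes only, not for all genes tested. Over that set and all settings, 6060 calls were the same, 59 were lost, 70 were gained and 10 turned, the 10 being those just given. Genes outside the set can turn too, such as Hdac7 with the offset (0.33 to -0.21). A gene with no reads in any single library cannot be seen here, and low genes such as Il1rl1 rest on few counts.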
